A study of Mus musculus with 6 samples.

Results

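Erythropoietin and Kit receptor signalling was followed through 10 genes of the 34821 gene names on the array. They were chosen by name: the receptors Epor and Kit, the kinases Jak2 and Lyn, the transcription factors Stat5a and Stat5b, and the STAT5-induced genes Pim1, Cish, Socs1 and Socs3. They were read by 11 probes, 2 of them for Stat5b. RNA came from CD71highTer119+ erythroblasts sorted from the bone marrow (BM) of 3 P38α+/- (Mx1-Cre/P38α fl/+) and 3 P38α-/- (Mx1-Cre/P38α fl/fl) mice on day 4 of recovery from phenylhydrazine (PHZ, 100 mg per kg), an agent that destroys circulating red cells. All 6 mice carried Mx1-Cre, whose interferon-responsive promoter acts in many blood and other cells and is not particular to erythroblasts. All had received 3 injections of PolyIC (300 µg) at 6 to 8 weeks of age, followed by 6 weeks of rest. The P38α+/- controls thus carried 1 floxed allele open to deletion under the same treatment, and no mouse without Cre or without PHZ was analysed here. RNA from each mouse was hybridised to 1 Agilent array.

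Erythropoietin binds its receptor on erythroblasts and activates the bound kinase JAK2, which phosphorylates the receptor and STAT5. STAT5 then enters the nucleus and induces survival genes together with feedback inhibitors of the same pathway. Kit, the receptor of stem cell factor, acts earlier, in progenitors and the first erythroblasts, and its level falls as erythroblasts mature.

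A probe is called detected where the scanner software marked it as well above background. Each level is a log2 signal on a scale whose 0 is, on each array, the 75th percentile of the probes detected on all 6. Each level is given for replicates 1, 2 and 3, in that order. Between 28.9% and 53.1% of all probes were detected on an array. P38α-/- replicate 3 was alone on its slide and scan, and values within the first slide are those without it. The brighter probe of Mapk14, the gene of P38α, read 0.33, 0.58 and 0.61 in P38α+/- arrays and 0.76, 1.19 and 1.20 in arrays labelled P38α-/- (log2 fold change 0.54, standard error (SE) 0.19, adjusted p = 0.186 by limma with Benjamini-Hochberg adjustment). The dimmer one differed by 0.01 (SE 0.42, adjusted p = 0.991). These probes therefore did not show a loss of Mapk14 RNA, and the sources used here do not place them against the deleted part. Every direction below rests on the labels. All 8 defining erythroid markers, among them Slc4a1, Alas2, Klf1 and Gata1, were detected on all 6 arrays. Their summed level ranged from 9.55 to 10.3 in P38α+/- and from 9.55 to 10.34 in arrays labelled P38α-/-. A summed level is the log2 of the added signals, so the brightest genes dominate it, here the globin genes Hba-a1 and Hbb-b1. Taken singly, 0 of the 8 were higher or lower without overlap.

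Testing needed detection on each of the 3 arrays of one genotype or the other. This held for 9 member probes of 8 genes, and for 18785 probes of 14158 genes in all. A gene was counted by its brightest tested probe and called at an adjusted p of at most 0.05 (limma, adjusted over all tested probes) with a fold of at least 2. By this rule, 0 of the 8 tested genes were called, against 0.17% of all tested genes, and the count was 0 too by the equal-variance test of the methods. At an unadjusted p of at most 0.05, limma gave 1 of the 8, Kit, which was lower. Over all genes 15.2% were lower at that p. The genotypes did not overlap, with P38α-/- higher, for 2 of the 8 genes, Epor and Jak2 (7.44% of all tested genes), and with P38α-/- lower for 1, Kit (19.7% of all tested genes). The median log2 fold change was 0.24 over the 8 genes and -0.14 over all genes. When replicate number was added as a block, 1 of the 8 was called, again Kit, against 0.374% of all genes. The numbers were taken to pair the arrays partly from correlations in these same data, and the test of the methods was unpaired.

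**Figure D1:**
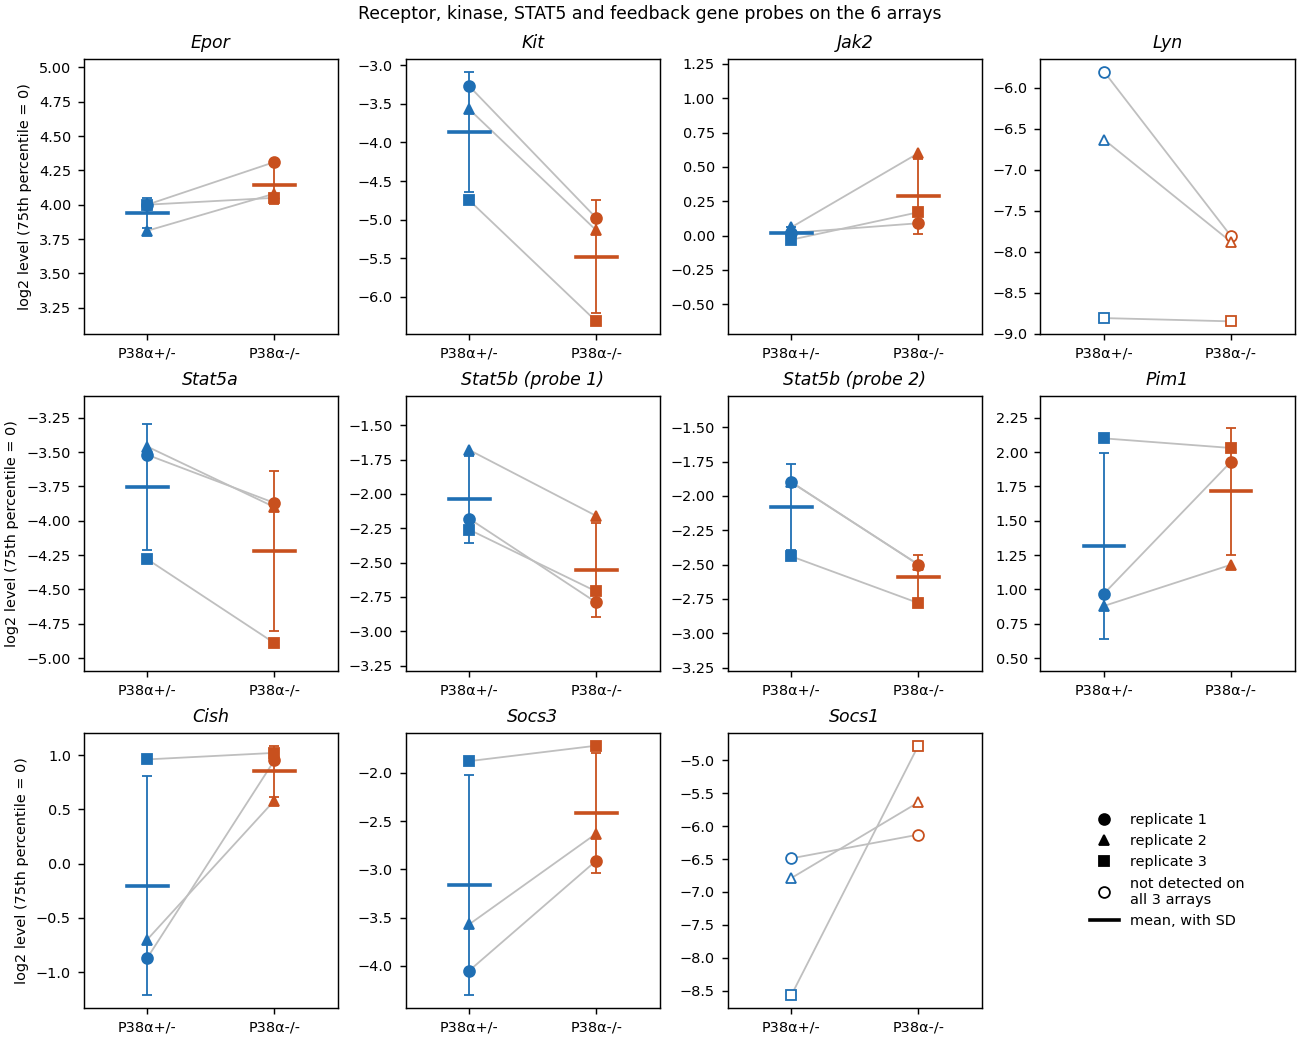
Log2 level (array's 75th percentile = 0) of each of the 11 probes in P38α+/- (blue) and P38α-/- (orange) arrays, with grey lines joining arrays of the same replicate number and bars for the mean and SD. Kit is lower in all 3 arrays labelled P38α-/-, while Cish, Socs3 and Pim1 are lowest in P38α+/- replicates 1 and 2. Open symbols mark groups in which a probe was not detected on all 3 arrays.

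Epor, the erythropoietin receptor, was measured on all 6 arrays by a probe on chromosome 9 (chr9:21763422-21763481, mm9 as for all probe positions here). It read 4.0, 3.81 and 4.0 in P38α+/- arrays and 4.31, 4.08 and 4.05 in arrays labelled P38α-/-. The groups did not overlap, but the gap between the highest P38α+/- array and the lowest of the others was small beside the spread within each genotype. The log2 fold change was 0.21 (SE 0.16, 95% interval -0.17 to 0.58), or 1.16-fold, and did not pass (adjusted p = 0.481 by limma; p = 0.1 by a two-sided exact permutation test, which can go no lower with 3 arrays per genotype). The upper end of the interval lies below a doubling. Differences between arrays of the same number were 0.31, 0.27 and 0.05. The closest profile to that of Epor over the 6 arrays, among 15540 probes detected on all of them, was that of Cox8a, a subunit of cytochrome c oxidase, with a mean absolute difference of 0.025 after each was centred on its own mean. The next 2 were probes without a gene symbol, listed as ENSMUST00000077309 (0.027) and A_55_P2047375 (0.033).

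Kit gave the widest difference between genotypes among the tested members. Its probe (chr5:76052394-76052453) read -3.27, -3.57 and -4.75 in P38α+/- arrays and -4.98, -5.14 and -6.32 in arrays labelled P38α-/-. Every array labelled P38α-/- was below every P38α+/- array, and replicate 3 was the lowest of its genotype in both. The probe was detected on all 6, but -6.32 is near the lowest level of any detected probe, which averaged -6.4 over the arrays. The log2 fold change was -1.62 (SE 0.51, 95% interval -2.84 to -0.40), a 3.07-fold lower signal, or -1.46 relative to the median probe. It did not pass (adjusted p = 0.160 by limma, in a range of 0.024 to 1.00 over the alternatives). The difference between arrays of the same number was nearly constant, at -1.71, -1.57 and -1.57. With the replicate number as a block its SE was 0.12 and Kit was called (adjusted p = 0.048 by limma). With array weights it was called too (log2 fold change -2.25, adjusted p = 0.024 by limma), where 10.3% of all genes were. Within the first slide the log2 fold change was -1.20 (adjusted p = 0.364 by limma). In RNA from a sorted pool, fewer cells that express a gene and less RNA per cell cannot be told apart.

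Markers of some other blood cells were lower in the same arrays as Kit. All 13 neutrophil markers were detected on all 6 arrays. Their summed level ran from 6.97 to 8.24 in P38α+/- arrays and from 6.18 to 6.61 in arrays labelled P38α-/-. Array pairs of the sum differed by -1.02, -1.67 and -0.8. Of the 13 genes, 10 were lower without overlap. Over all tested genes 19.7% were lower and 7.44% higher without overlap, the shares to set beside each marker count below. The 3 brightest were S100a9 and S100a8, which encode the subunits of calprotectin, and Csf3r, the receptor of granulocyte colony-stimulating factor. S100a9 differed by -1.14 and S100a8 by -1.24 (adjusted p = 0.145 and 0.159 by limma), whereas Csf3r differed by -0.16 with overlapping groups.

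Mast cells keep Kit when mature. Of the 5 mast cell and basophil markers, 0 were detected on all 6 arrays. Their summed level ran from -4.44 to -1.69 in P38α+/- arrays and from -5.17 to -4.47 in the others. Array pairs of this sum differed by -2.13, -2.93 and -0.03, with undetected signals in the sum. Only 1 of the 5 genes, Mcpt8, was lower without overlap. Mcpt8, a basophil protease, was detected on all 3 P38α+/- arrays and on none labelled P38α-/-, where it was at least 5.62-fold lower. That bound rests on the detection floor defined below for Socs1. The limma test used the undetected signals themselves (log2 fold change -3.34, adjusted p = 0.138). Tpsb2, a mast cell tryptase, was measured on 2 arrays of each genotype, and Cpa3, a mast cell carboxypeptidase, on 1 P38α+/- array only. Both of these genes overlapped between genotypes. The summed level of the 8 T and NK cell markers was also lower without overlap (-0.48 to 1.41 against -0.90 to -0.50). Its 3 brightest were Nkg7, a cytotoxic granule gene (-1.67), the T cell receptor subunit Cd3e (-0.32) and the coreceptor Cd4 (-0.17). Nkg7, the brightest, was the only 1 of the 8 that was lower without overlap. Cd3e and Cd4 overlapped and were higher in the third array pair (0.13 and 0.15). The 8 B cell markers ran from -2.96 to 0.80 and from -3.78 to -2.15, and the 4 progenitor and early erythroid markers Gata2, Myb, Cd34 and Cd44 from -1.65 to -0.30 and from -1.81 to -1.32. Both of these lists overlapped between genotypes but were lower in each array pair, by -2.32, -4.12 and -0.83 for the B cell list and by -0.33, -1.27 and -0.17 for the progenitor list. Of the progenitor list, Cd44 differed by -0.01 and Myb by -1.08, both with overlapping groups (adjusted p = 0.98 and 0.267 by limma). Gata2 was the only 1 of the 4 lower without overlap, but it was detected on 1 P38α+/- array and was not tested. Cd34, a surface protein of progenitors, was detected on all 3 P38α+/- arrays and on 1 labelled P38α-/-. Its log2 fold change was -1.87 with overlapping groups (adjusted p = 0.254 by limma). Its array pairs differed by -1.97, -1.96 and -1.69, and with the replicate block Cd34 passed (adjusted p = 0.048 by limma). All these Cd34 values used undetected signals on the other arrays labelled P38α-/-, so they are not a measured parallel to Kit.

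The 10 monocyte and macrophage markers summed to between -0.48 and 0.79 in P38α+/- arrays and between -1.17 and -0.12 in the others, overlapping but lower in each pair. The 7 late erythroid markers overlapped (6.68 to 6.81 against 6.68 to 6.88). Taken singly, 2 of them were higher without overlap, where 7.44% of all tested genes were. These were Trim58 and Xpo7 (0.51 and 0.25, adjusted p = 0.148 and 0.369 by limma). The 7 megakaryocyte and platelet markers overlapped as well (0.66 to 1.08 against 0.87 to 1.22), a sum weighted to its brightest gene, Gp9 (0.33). Of the 7, 1 was lower without overlap, Pf4 (log2 fold change -1.42, adjusted p = 0.196 by limma), and 0 were higher. The shares of all tested genes were 19.7% and 7.44%. The part of any of these cells in the Kit signal was not tested.

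The 3 genes whose profile was closest to that of Kit were Cxcr2, Pik3cd and Sh3tc1, with mean absolute differences of 0.103, 0.116 and 0.123. Cxcr2, a chemokine receptor of neutrophils, read -2.29, -2.26 and -3.79 in P38α+/- arrays and -4.15, -4.16 and -5.39 in arrays labelled P38α-/-. Like Kit, it was lower in replicate 3 of each genotype. Pik3cd, the leukocyte catalytic subunit of PI3 kinase, is also one of the pathway genes described below.

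**Figure D2:**
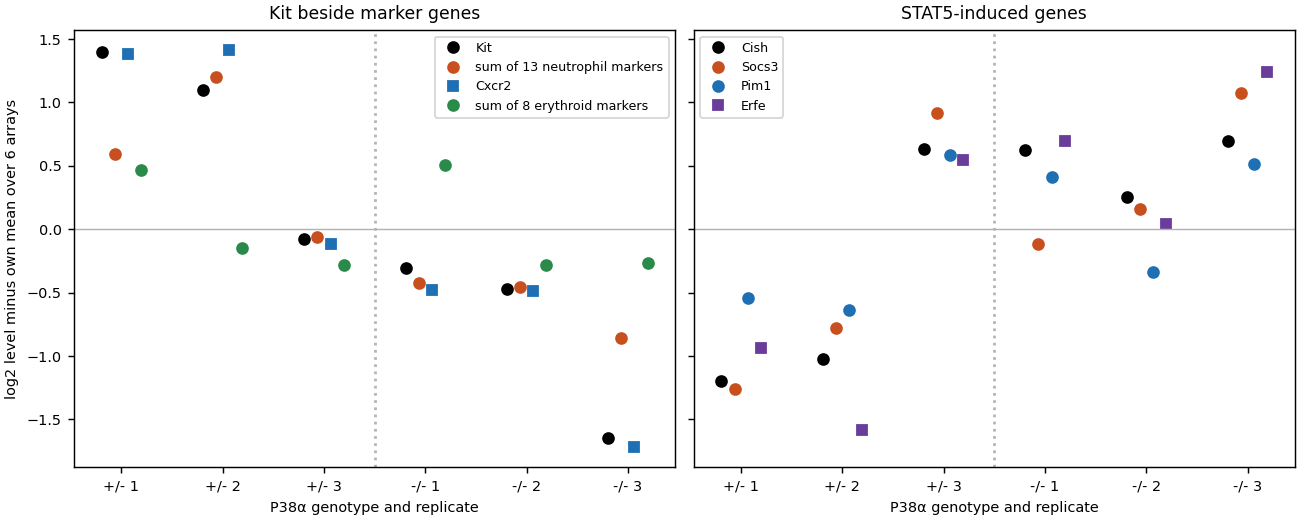
Log2 level of each gene or summed marker list minus its own mean over the 6 arrays, by genotype and replicate. On the left, Kit, Cxcr2 and the 13 neutrophil markers are lower in every P38α-/- array than in any P38α+/- array, and the 8 erythroid markers overlap. On the right, Cish, Socs3, Pim1 and Erfe are lowest in P38α+/- replicates 1 and 2, and P38α+/- replicate 3 lies above the lowest P38α-/- array.

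Jak2, the kinase bound to the erythropoietin receptor, differed little. Its probe (chr19:29387487-29387546) read 0.02, 0.06 and -0.03 in P38α+/- arrays and 0.09, 0.60 and 0.17 in arrays labelled P38α-/-. The 3 arrays labelled P38α-/- were higher without overlap, and replicate 2 stood above the others of its genotype. The log2 fold change of 0.27 (SE 0.18, 95% interval -0.17 to 0.71) did not pass (adjusted p = 0.443 by limma). Lyn, a SRC family kinase that also acts downstream of both receptors, was not detected on any of the 6 arrays (chr4:3718682-3718741), so no difference is given for it.

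Stat5a and Stat5b, neighbouring genes on chromosome 11 that encode the 2 STAT5 proteins, both read lower in every array pair. Stat5a (chr11:100746373-100746432) read -3.52, -3.46 and -4.28 in P38α+/- arrays and -3.87, -3.90 and -4.89 in arrays labelled P38α-/-. The groups overlapped. Its log2 fold change was -0.47 (SE 0.36, adjusted p = 0.499 by limma), and within the first slide -0.13. It turned to 0.01 with the percentile over all probes and to 0.03 in the authors' normalized table, so its direction depends on the scaling.

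Stat5b was read by 2 probes. The first (chr11:100642045-100642104) read -2.18, -1.68 and -2.26 in P38α+/- arrays and -2.79, -2.16 and -2.71 in arrays labelled P38α-/-, with overlapping groups. The second (chr11:100642187-100642246) read -1.90, -1.90 and -2.44 against -2.50, -2.50 and -2.78, with no overlap. The probes each gave a log2 fold change of -0.52, with an SE of 0.25 and 0.21 and an adjusted p of 0.294 and 0.228 by limma. Differences between arrays of the same number were -0.61, -0.48 and -0.45 for the first probe and -0.60, -0.60 and -0.35 for the second. With the replicate number as a block the adjusted p was 0.117 for Stat5a and 0.0991 and 0.107 for the Stat5b probes (limma), and none passed.

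**Figure D3:**
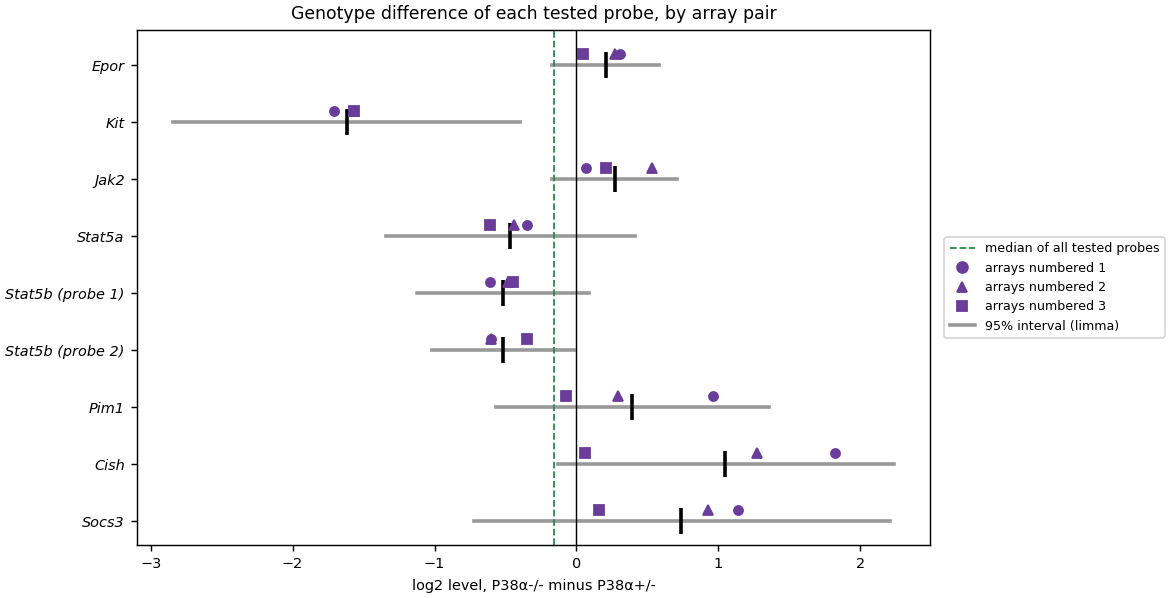
Difference in log2 level, P38α-/- minus P38α+/-, of each tested probe. Symbols show the 3 pairs of arrays with the same replicate number, black ticks the mean, grey bars the 95% interval of the unpaired limma test and the dashed line the median of all tested probes (-0.16). The 3 pairs of Kit lie within -1.71 to -1.57, while those of Cish spread from 0.06 to 1.82.

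STAT5 proteins bind DNA at TTC and GAA separated by 3 bases (TTCNNNGAA, which reads the same on both strands). The RefSeq promoter windows of the members (GRCm38.p6, 250 bases before to 50 after a gene's start) were searched for these letters, because Cish, Pim1 and the Socs genes are known STAT5 targets. Windows were found for 9 of the 10 genes, 13 windows in all. Only those of Cish and Socs3 held a match. Of all 32851 windows, 8.3% held at least 1 match and 0.457% at least 2. The Cish window held 2, at bases 251 to 259 and 262 to 270, the first beginning at the annotated start. The Socs3 window held 1, at bases 97 to 105. The windows of these 2 genes are shown 5′ to 3′ along the gene with the matches in capitals, as the ones that held any. They lie at chr9:107296409-107296708 (plus strand) and chr11:117969317-117969616 (minus strand). A match is only a match of letters, since binding was not measured.
Cish: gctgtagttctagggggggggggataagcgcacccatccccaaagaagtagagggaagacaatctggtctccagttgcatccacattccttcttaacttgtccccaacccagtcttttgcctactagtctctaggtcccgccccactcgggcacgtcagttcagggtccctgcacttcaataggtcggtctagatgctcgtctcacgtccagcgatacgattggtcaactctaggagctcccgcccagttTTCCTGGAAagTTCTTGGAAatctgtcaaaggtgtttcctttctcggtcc
Socs3: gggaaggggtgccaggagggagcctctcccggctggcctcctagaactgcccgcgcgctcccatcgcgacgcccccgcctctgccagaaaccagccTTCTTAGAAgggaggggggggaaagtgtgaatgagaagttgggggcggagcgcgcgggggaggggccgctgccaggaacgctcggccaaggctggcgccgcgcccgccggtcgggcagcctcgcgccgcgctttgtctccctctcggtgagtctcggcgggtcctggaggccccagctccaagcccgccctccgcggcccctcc

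Among the STAT5-induced members, Cish, Socs3 and Pim1 read lowest in P38α+/- replicates 1 and 2 and higher in replicate 3, whereas Socs1 did not follow this order. Cish, an SH2 protein that is induced by STAT5 and blocks its docking to the receptor, is the gene with both matches above (probe chr9:107204196-107204255). It read -0.87, -0.70 and 0.96 in P38α+/- arrays and 0.95, 0.58 and 1.02 in arrays labelled P38α-/-. P38α+/- replicates 1 and 2 were low, and replicate 3 lay within the range of the other genotype. Its log2 fold change was 1.05 (SE 0.49, 95% interval -0.13 to 2.24), or 2.08-fold, and did not pass (adjusted p = 0.279 by limma, in a range of 0.0477 to 1.00 over the alternatives). Arrays of the same number differed by 1.82, 1.27 and 0.06. With the percentile taken over all probes Cish was called (log2 fold change 1.54, adjusted p = 0.0477 by limma), where 4.62% of all genes were. Without P38α+/- replicate 3 its log2 fold change was 1.63 (adjusted p = 0.0544 by limma).

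Socs3, an inhibitor of JAK2, was also low in P38α+/- replicates 1 and 2 (probe chr11:117827480-117827539). It read -4.05, -3.57 and -1.88 in P38α+/- arrays and -2.91, -2.63 and -1.72 in arrays labelled P38α-/-. Replicate 3 was the highest in both genotypes, and the groups overlapped. The log2 fold change was 0.74 (SE 0.61, adjusted p = 0.522 by limma), 0.39 within the first slide and 1.39 without P38α+/- replicate 3 (adjusted p = 0.127 by limma).

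Pim1, a serine/threonine kinase that promotes survival (probe chr17:29630740-29630799), read 0.97, 0.88 and 2.10 in P38α+/- arrays and 1.93, 1.18 and 2.03 in arrays labelled P38α-/-. Again P38α+/- replicate 3 was the high one of its group, and the highest of all 6. The log2 fold change was 0.39 (SE 0.40, adjusted p = 0.616 by limma), with 0.24 within the first slide and 0.79 without that array (adjusted p = 0.211 by limma).

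Socs1, the other SOCS box inhibitor of JAK2 in the set (probe chr16:10783951-10784010), was detected on none of the P38α+/- arrays. It was detected on 2 of the 3 arrays labelled P38α-/-, replicates 2 and 3, which read -5.64 and -4.78. Over all 3 its signal was at least 1.74-fold higher than the detection floor of the P38α+/- arrays, taken on each array as the lowest signal of a detected probe, or the gene's own signal where higher. It was not tested, since neither genotype had it detected on all 3 arrays.

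The other genes of the pathway came from a list of 61, of which 49 were tested. By the rule above 0 were called in either direction, and 0 by the methods' test. At an unadjusted p of at most 0.05, limma gave 2 of the 49 higher and 8 lower, where 4.86% of all tested genes were higher and 15.2% lower. The genotypes did not overlap for 2 higher and 8 lower genes, where the shares of all tested genes were 7.44% and 19.7%. The median log2 fold change was -0.03, against -0.14 over all genes. The replicate block gave 0 calls here, and array weights gave 8, 1 of them higher.

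Of the ligands, Epo was detected on 1 P38α+/- array and Kitl, stem cell factor, on none. Of the 3 receptor partners, Csf2rb, the beta common cytokine receptor chain, read -2.11, -1.43 and -2.91 in P38α+/- arrays and -3.31, -3.44 and -3.45 in arrays labelled P38α-/-. It was lower without overlap (log2 fold change -1.25, SE 0.37, adjusted p = 0.151 by limma). Its dimmer probe gave -0.99 with overlapping groups (adjusted p = 0.274). Csf2rb2, the related chain for interleukin 3 whose sequence is close enough that probes may share signal, had a log2 fold change of -0.57 with overlapping groups at its brighter probe. Its dimmer one, detected on 2 of the 3 arrays labelled P38α-/-, was lower without overlap (-0.98, adjusted p = 0.221 by limma).

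Of the 4 other JAK and STAT genes tested, Stat3 differed by -0.88 (SE 0.33, adjusted p = 0.206 by limma) and Tyk2 by 0.62 (SE 0.28, adjusted p = 0.266). Among 5 other tyrosine kinases, Fyn and Yes1 were not detected on any array and Src and Tec on 1 P38α+/- array each. Btk alone was tested, and its 2 probes gave -0.23 and 0.18. Among 7 tested adaptors, Vav1, a guanine nucleotide exchange factor of blood cells, read -1.14, -0.02 and -1.98 against -2.37, -2.10 and -3.09. It was lower without overlap (log2 fold change -1.47, SE 0.52, adjusted p = 0.191 by limma), and the next was Gab1, a docking protein, at 0.24.

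Negative regulators had the lowest median among the groups with more than 3 genes tested, -0.55 over 7 genes. Sh2b3, the adaptor LNK that restrains JAK2 and Kit, read -3.43, -3.77 and -3.88 in P38α+/- arrays and -4.84, -4.49 and -4.94 in arrays labelled P38α-/-. The groups were well apart, and the log2 fold change was -1.06 (SE 0.20, adjusted p = 0.0876 by limma, and 0.0771 with the replicate block). A second Sh2b3 probe, detected on 2 of the 3 arrays labelled P38α-/-, gave -1.10 (adjusted p = 0.142 by limma). Ptprc, the leukocyte phosphatase CD45, differed by -1.02 (SE 0.38, adjusted p = 0.203). Socs2, another STAT5-induced inhibitor, was tested by none of its 4 probes.

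In the PI3 kinase and AKT arm, 8 of 8 genes were tested and the 2 with the widest differences went opposite ways. Pik3cd, the gene close to Kit in profile, read -2.46, -2.78 and -4.00 against -4.23, -4.24 and -5.14 (log2 fold change -1.46, SE 0.46, adjusted p = 0.162 by limma). Pik3r2, a regulatory subunit, read -1.46, -1.98 and -2.26 against -0.96, -1.27 and -1.05 (log2 fold change 0.81, SE 0.24, adjusted p = 0.152 by limma). Neither overlapped between genotypes at these probes. A dimmer tested probe of Pik3cd, detected on 2 of the 3 arrays labelled P38α-/-, gave -1.13 with overlapping groups (adjusted p = 0.256 by limma). In the RAS and ERK arm, Map2k2, the kinase MEK2, differed by 0.45 and 0.48 at its 2 probes, both without overlap (adjusted p = 0.235 and 0.253 by limma), and Nras by -0.26. The median of these 9 genes was 0.10.

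Of 10 tested erythropoietin-induced or STAT5-induced genes outside the member set, Erfe, which encodes the hormone erythroferrone, resembled Cish. It read -2.13, -2.78 and -0.65 in P38α+/- arrays and -0.50, -1.15 and 0.05 in arrays labelled P38α-/-. P38α+/- replicate 3 again lay within the range of the other genotype. The log2 fold changes of its 2 probes were 1.32 and 1.27 (adjusted p = 0.259 and 0.287 by limma, and 0.0819 and 0.0818 with the replicate block). Serpina3g, a protease inhibitor, differed the other way, by -1.32 (SE 0.41, adjusted p = 0.158 by limma). It was detected on 2 of the 3 arrays labelled P38α-/-, as was Osm. The remaining 8, which include Bcl2l1, Mcl1, Pim2 and Myc, lay between -0.72 (Osm) and 0.25 (Mcl1).

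**Figure D4:**
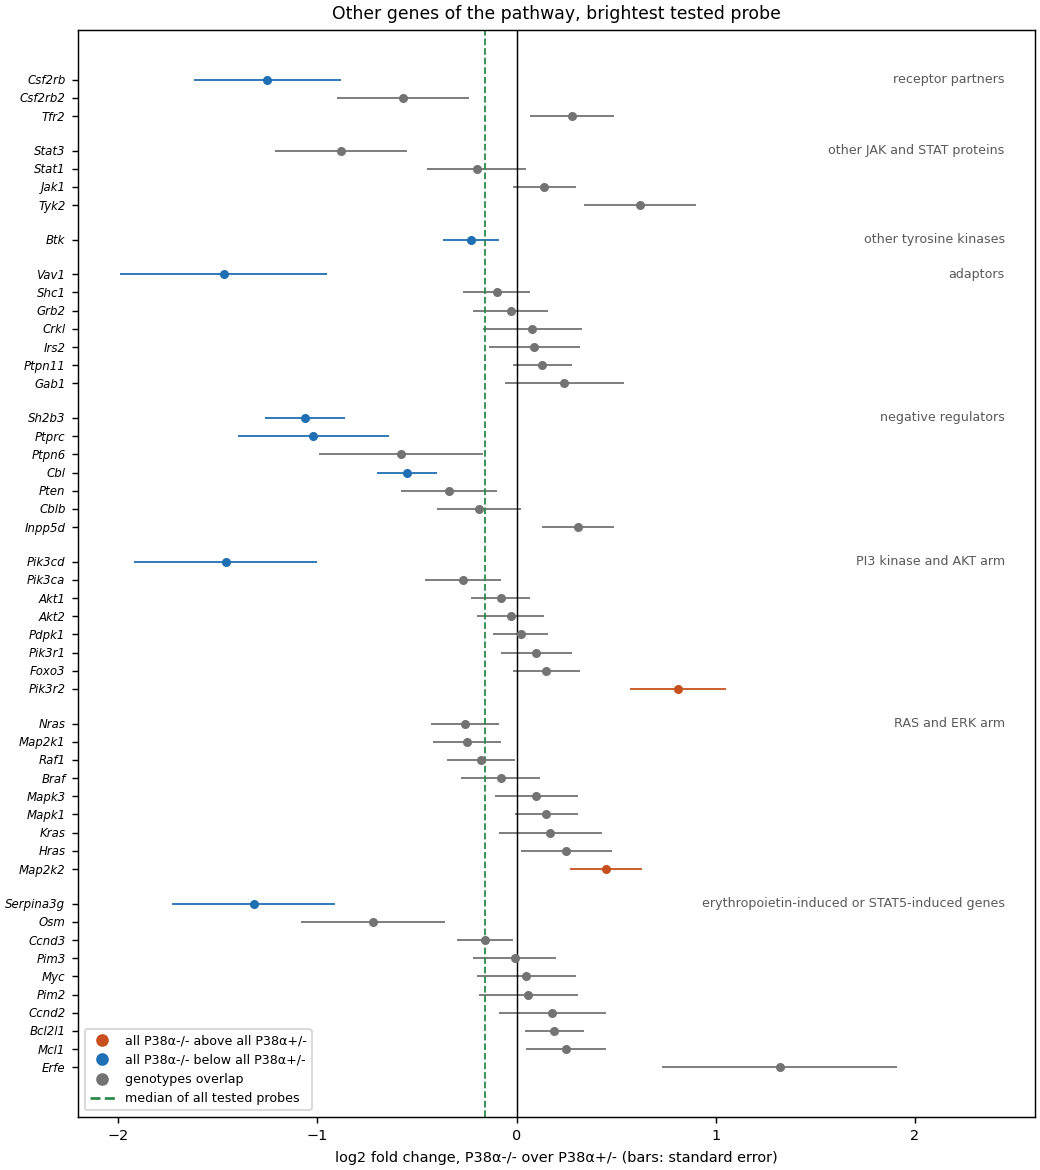
Log2 fold change, P38α-/- over P38α+/-, of the 49 tested pathway genes by role, with standard errors and the median of all tested probes (dashed, -0.16). Blue and orange mark the 8 and 2 genes whose genotypes did not overlap, and none passed the adjusted threshold.

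**Figure D5:**
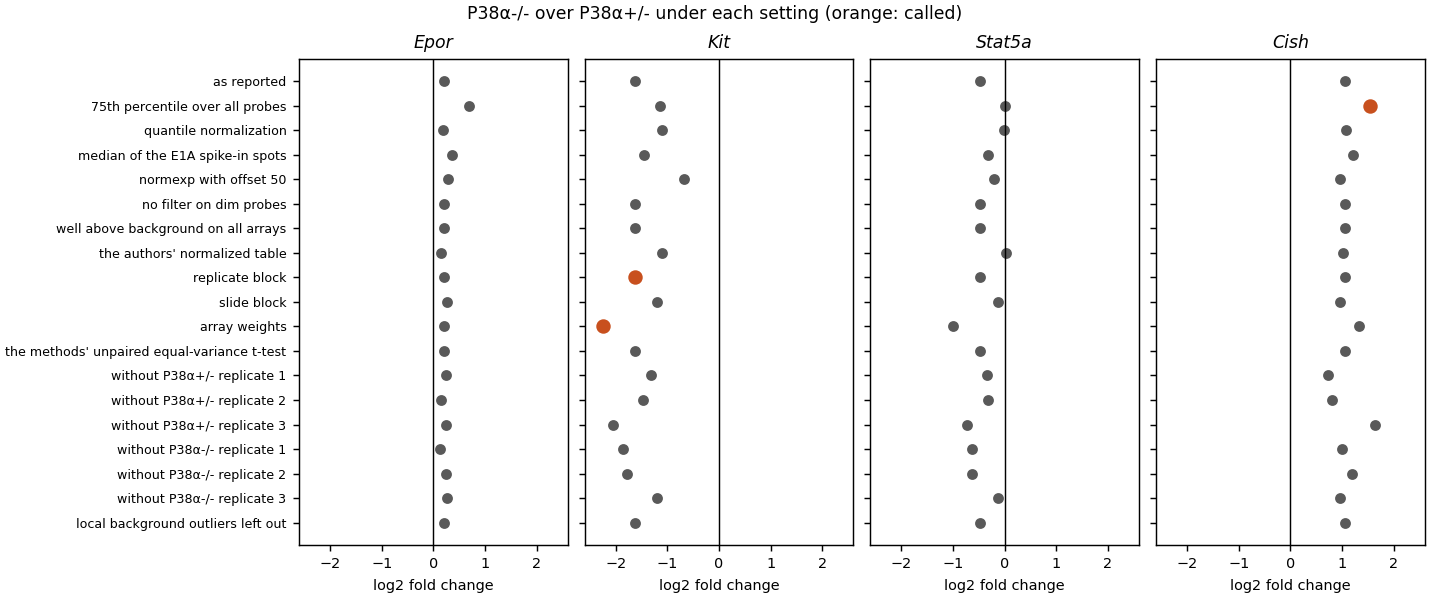
Log2 fold change of Epor, Kit, Stat5a and Cish under the reported setting and each of 18 alternatives, with calls in orange. Kit stays below 0 and Cish above 0 throughout, from -2.25 to -0.67 and from 0.72 to 1.63, while Stat5a reaches 0.03.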

How the data were processed

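Total RNA of sorted erythroblasts (10 ng from each of 6 mice) was amplified and put on 1 single-colour (Cy3) Agilent array each. The authors deposited the scanner intensity of every spot (Agilent Feature Extraction 10.7.3.1), background-subtracted within the array and not normalized between arrays, and a table of normalized intensities, used only as an alternative. In that table the column of P38α-/- replicate 2 had a Spearman correlation of 0.898 with its scanner signal, against 1.0 for the other 5. Probes carry mm9 positions in the files. Exons and UTRs were not assigned here.

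Members and gene lists were chosen with earlier results of these data known. Control spots and spots marked as feature outliers were left out, and spots of a probe were averaged. Spots marked as outliers of the local background were at first left out too. They were kept after the values had been seen, because the subtracted background is a fitted surface on 100% of spots and that filter removed 1 array from a Stat5b probe. The first filter is given as an alternative chosen after seeing the data. The log2 signal minus the array's 75th percentile over 15540 probes well above background on all arrays was fitted by lmFit and eBayes of limma 3.58.1 under R 4.3.3 and tested two-sided, unblocked as in the methods' test, with Benjamini-Hochberg adjustment over 18785 probes. The fit was checked on simulated data. Correlations of the arrays' deviations from their genotype's mean were 0.393, 0.242 and 0.389 for equal replicate numbers and no higher than 0.061 for unequal ones. The deviations within a genotype sum to 0, so positive values for equal numbers push the others down, and this contrast is partly built in. The series' design text also speaks of pairs, and the numbers were taken to pair the arrays. Named were all member probes, the 2 pathway genes per group with the largest change, up to 3 of the brightest markers of a list that did not overlap, and the 3 genes closest in profile to Epor and Kit. Other genes named with them were chosen after their values were seen. One gene of the erythroid marker list is not reported here, and the summed level leaves it out. The number of arrays limits the precision.

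Alternatives were the percentile over all probes, quantile normalization, the E1A spike-in spots, normexp (offset 50), dim probes kept or required on all arrays, the authors' normalized intensities, the replicate number and the slide as blocks, array weights, the methods' unpaired equal-variance test, any probe per gene, and each array left out.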

Additional observations from a re-analysis of the deposited data

How the results depend on the processing

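Of 162 values of the member probes under 18 alternatives, 157 kept their direction and were not called, 3 became calls (2 of Kit, 1 of Cish) and 2 changed sign (Stat5a, from -0.47 to 0.01 with the percentile over all probes and to 0.03 in the authors' normalized table). The slide block and leaving out P38α-/- replicate 3 gave the same values, because that array is alone on its slide. They are counted here as separate alternatives. Among the 157, the second Stat5b probe had an adjusted p of 0.0369 with array weights (limma), at a log2 fold change of -0.70, under the fold required. The count of member genes called was 0 and became 1 with the percentile over all probes (Cish), 1 with the replicate block (Kit) and 1 with array weights (Kit). The block changed no other call among members and pathway genes. Pathway genes called went from 0 to 2 with the percentile over all probes (Erfe and Pik3r2, both higher) and to 8 with array weights. Leaving out each array in turn gave 0 called members and 0 called pathway genes every time. Over all genes, 24 were called, 19 of them higher. The count was 654 (382 higher) with the percentile over all probes, 14 (13 higher) with quantile normalization, 8 (2 higher) with the spike-in spots, 11 (11 higher) with normexp, 0 with no filter on dim probes, 56 (43 higher) with the stricter filter, 10 (10 higher) in the authors' table, 53 (13 higher) with the replicate block, 0 with the slide block, 1463 (229 higher) with array weights and 2 with the methods' test. Leaving out 1 array gave 0 to 84, with 84 without P38α+/- replicate 3, 10 without P38α+/- replicate 1, and 0 without P38α+/- replicate 2 or any P38α-/- array. The cause of these changes was not tested. Scaling moved the median of tested probes from -0.16 to 0.32 with the percentile over all probes, to 0.06 with quantile normalization and in the authors' table, and to -0.01 with the spike-in spots. Relative to that median, Stat5a was at -0.31 as reported and -0.31 with the percentile over all probes. These 2 scalings differ by 1 constant per array, so this equality was fixed in advance and shows nothing about Stat5a. The same distance was -0.08 with quantile normalization, -0.03 in the authors' table and 0.02 with the slide block. With local background outliers left out, a filter reinstated after seeing the data, the counts were 0 members, 0 pathway genes and 25 genes in all. Signals near background limit Lyn, Socs1, Socs2 and the ligands.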
